A study of Mus musculus with 6 samples.

Results

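The transcriptomes of liver and adrenal gland from ABCG8 knockout mice were compared across the 6 libraries deposited, 4 from liver and 2 from adrenal. A gene was taken as separating the organs when every library of one organ lay above every library of the other. The filter kept 14488 of 33639 gene symbols, those that reached 1 CPM (the count relative to the library total, on the usual scale) in at least 2 libraries, and 9955 of these separated the organs. All donors were labelled as Global ABCG8 KO male mice. Until weaning they ate a low sterol diet with 0.005% ezetimibe (LS+Ez), an inhibitor of intestinal sterol uptake, and for the next 12 weeks a test diet. The livers came from mice on the Low Sitosterol (LS), High Sitosterol (HS), Ergosterol (Ergo) and Stigmasterol (Stig) diets, the adrenals from mice on the LS and HS diets, with 1 mouse per group. Sets of 4 liver values below are in the order LS, HS, Ergo, Stig, and pairs of adrenal values in the order LS, HS. The sources used here do not give the sterol doses, nor say whether a liver and an adrenal shared a mouse. No wild-type animals were included, so every value belongs to the knockout. The diets stand in for replicates of an organ, and p-values measure the spread between these animals and diets together.

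The liver and the adrenal cortex are organs in which cholesterol serves as a starting material as well as a membrane lipid. Hepatocytes convert it to bile acids, pack it into lipoproteins and secrete it into bile, while cortical cells store it as esters and turn it into glucocorticoids and mineralocorticoids. Nuclear receptors set much of this division of labour: LXR and FXR respond to oxysterols and bile acids, and SF-1, the product of Nr5a1, drives the steroidogenic program of the adrenal cortex. ABCG8 pairs with ABCG5 in the canalicular membrane of the hepatocyte and in the enterocyte, where the pair exports plant sterols.

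The 6 libraries held 41546507 to 50573364 estimated counts, and 3 counts, the limit that a count of 0 allows, equal 0.0593 to 0.0722 CPM. Values below are CPM after TMM scaling over the 6 libraries (scaled CPM) or the authors' TPM, which divides by transcript length and is used for the order of receptor levels and for shares within pairs. Liver libraries correlated with each other at Pearson's r of 0.905 to 0.957 on log2 values across genes, the adrenals at 0.974, and liver with adrenal at 0.436 to 0.488. A few genes took much of the liver RNA: the 10 most abundant held 17.7% to 24.3% of the counts there, against 10.6% and 10.5% in the adrenals. The choice of scaling moved the comparison. The median log2 difference (adrenal minus liver) over all genes tested was 0.08 with TMM, 1.35 after scaling by total counts and 1.79 on log2(TPM + 0.1), a shift of 1.27 and 1.71. With TMM, edgeR's quasi-likelihood test at a Benjamini-Hochberg adjusted p below 0.05 called 26.3% of the genes higher in adrenal (3811) and 24.4% higher in liver (3528), and 51.9% of the calls were on the adrenal side. By edgeR on total counts that share was 85.9%. By limma on log2(TPM + 0.1), which changes the test and the length correction along with the scaling, it was 89.4%. With 1 adrenal left out the calls fell to 1927 and 2069 (without LS) or 1971 and 1921 (without HS).

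The adrenal libraries lay above all livers for 5378 genes (37.1%) and the livers above both adrenals for 4577 (31.6%). By total counts the numbers were 9988 and 1662, and by TPM 10845 and 1373. Both of these scalings move the median gene toward adrenal, so liver genes could lose their side and adrenal genes hardly could: 5368 adrenal genes (37.1%) and 1348 liver genes (9.30%) had the same side under TMM, total counts and TPM. Genes named below as liver genes are therefore given with their standing under the other scalings where it differed. The distance between the organs, called the gap here, is the log2 ratio of the lowest library of the higher organ to the highest library of the lower organ. It reached 5 for 342 adrenal and 550 liver genes, all of which kept their side under the 3 scalings. A gap of 10 was reached by 2 adrenal and 176 liver genes.

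Some libraries stood apart and touch what follows. The LS liver had higher levels of adrenal genes than the other livers. Over 59 abundant adrenal genes with a gap of 5 or more, its level was a median 0.616% of the adrenal mean (quartiles 0.410% and 1.14%). Of the 59, 42 were highest in it among the livers. The highest of the other 3 livers, taken gene by gene, stood at a median 0.395%. In the reverse direction 386 abundant liver genes with a gap of 5 or more reached a median of 0.0314% and 0.0382% of their liver level in the adrenals. The gap that chose both sets also limits the level in the lower organ, so these percentages were bounded in advance. The livers matched their male label and the adrenals did not: Eif2s3y, a Y-linked gene, stood at 32.3 to 44.5 scaled CPM in the livers, at 0 in the LS adrenal and at 0.0224 in the HS adrenal. It ran at 35.0% to 53.9% of its X-linked copy Eif2s3x in liver and at 0.0152% or less in adrenal. Organ and sex therefore cannot be told apart in any comparison here. The Stig liver was the lowest of the livers for 392 of the 550 liver genes with a gap of 5 or more.

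The adrenal libraries were those of a steroid-producing cortex. All 10 genes of adrenal steroid synthesis were called higher in adrenal, with a median log2 difference of 9.38. Star, which carries cholesterol into the mitochondrion, stood at 7554 and 9251 scaled CPM in the LS and HS adrenals, and at 34.9, 1.94, 2.41 and 2.58 in the 4 livers. Both adrenals lay at least 217-fold above the highest liver, and the LS liver lay far above the other 3. The fitted difference for Star was 9.65 ± 1.55 on the log2 scale (SE), with an adjusted p of 0.003 by edgeR's quasi-likelihood test. Cyp11a1, which cuts the cholesterol side chain, had 3180 and 2016 scaled CPM in the adrenals and 0.451 to 23.4 in the livers. Hsd3b1 (6431 and 5980 scaled CPM) and Cyp21a1 (7578 and 7258) encode the enzymes of the next steps toward corticosterone. The last step belongs to Cyp11b1, at 5627 and 5502 scaled CPM in the adrenals and 0.451 to 19.6 in the livers. Cyp11b2, the aldosterone synthase of the outer cortex, reached 203 and 227 scaled CPM in the adrenals. Among the livers it had counts in the LS liver alone, at 0.701. The mitochondrial electron carriers of these enzymes were less selective: Fdxr stood at 592 and 483 scaled CPM in adrenal and 22.4 to 31.5 in liver, and Fdx1 at 453 and 874 against 73.6 to 165.

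Regulators of the cortex showed the same side. Of 12 genes in that list, 10 were called higher in adrenal and none in liver, with a median log2 difference of 4.67. Mc2r, the ACTH receptor, had 174 and 195 scaled CPM in the adrenals, 0.468 in the LS liver, 0.0385 in the Stig liver and 0 in the other 2 livers. Its accessory protein Mrap was much less confined, at 224 and 319 scaled CPM in the adrenals and 61.0 to 83.9 in the livers, a log2 difference of 1.93 ± 0.23 (edgeR adjusted p = 0.000974). Agtr1b, an angiotensin II receptor of the aldosterone-producing zone, had no count in any liver and 9.25 and 3.92 scaled CPM in the adrenals, at least 193-fold higher against a floor of 3 counts over the 4 livers. Shh and Wnt4, signals of the capsule and outer cortex, were called as well, Shh at 19.7 and 13.2 scaled CPM against 0.182 or less in liver. Cited2 and Inha were not called (edgeR adjusted p = 0.204 and 0.123). Inha, an inhibin subunit, had 9.48 and 23.9 scaled CPM in the adrenals but 7.65 in the LS liver against 0.150 to 0.809 in the others. Without that liver 11 of the 12 were called.

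**Figure D1:**
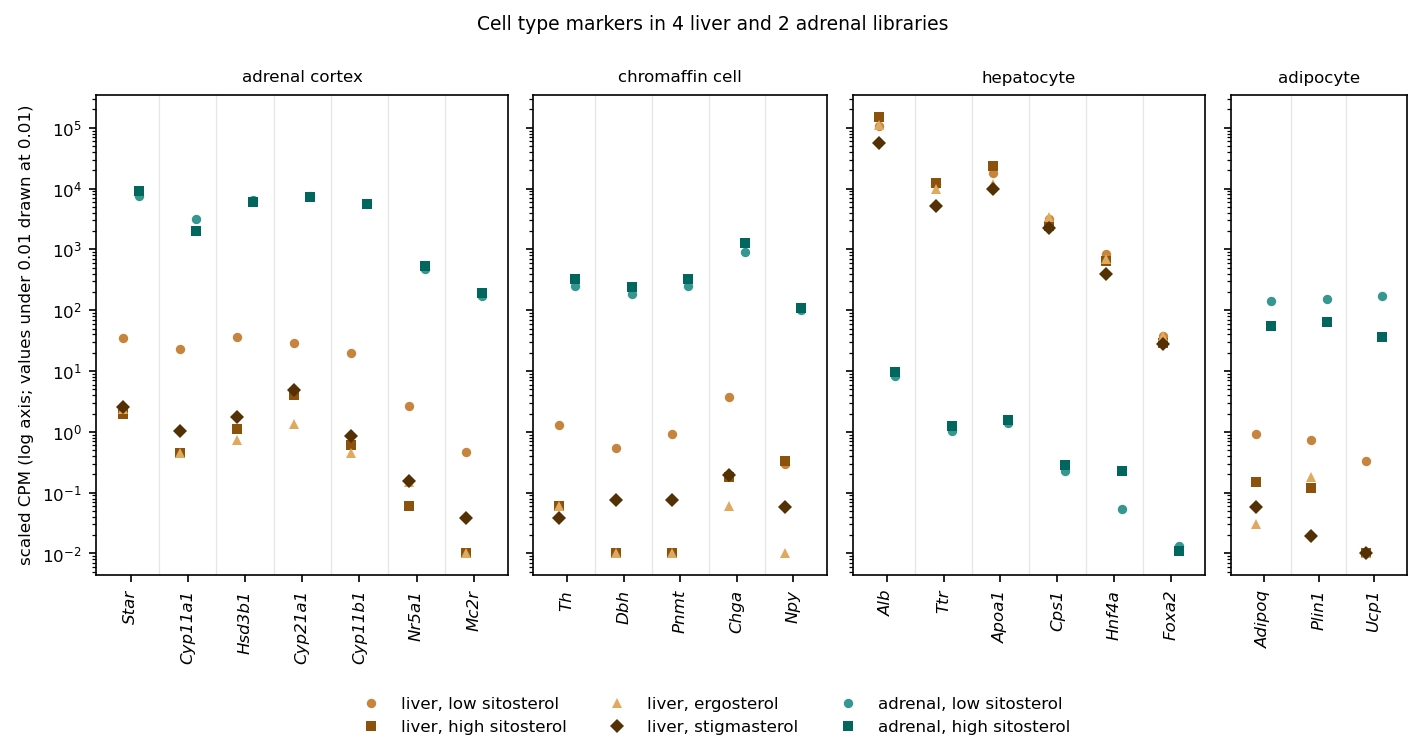
Scaled CPM (log axis) of marker genes of the adrenal cortex, chromaffin cells, hepatocytes and adipocytes, 1 point per library, 4 livers in brown and 2 adrenals in green, with values under 0.01 drawn at 0.01. Cortical and chromaffin genes were high in both adrenals, with the LS liver above the other livers (Star at 34.9 against 1.94 to 2.58), and hepatocyte genes were high in the 4 livers (Alb at 55251 or more against 8.35 and 9.63).

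The medulla was present in both adrenal samples. Of 18 chromaffin cell genes, 15 were called higher in adrenal, with a median log2 difference of 7.32. Dbh and Pnmt, the enzymes that make noradrenaline and adrenaline, stood at 182 and 242 and at 251 and 325 scaled CPM, and Th, the first enzyme of the pathway, at 249 and 324. The granule protein genes Chga and Chgb had 906 and 1285 and 1082 and 1239 scaled CPM. Of the 16 that lay above all livers, 15 were higher in the HS adrenal. With 1 mouse per diet, diet and the amount of medulla in each sample cannot be told apart. Ddc, the decarboxylase between Th and Dbh, went the other way: 14.2 and 23.7 scaled CPM in the adrenals and 37.4 to 111 in the livers, a log2 difference of -2.01 ± 0.52 (edgeR adjusted p = 0.0176). In TPM its ranges overlapped, at 24.4 and 42.0 against 22.3 to 84.7. Akr1c18, a marker of the inner X zone of the mouse cortex, had 278 scaled CPM in the LS adrenal and 63.3 in the HS one, with 0.451 to 1.54 in the livers. Pik3c2g, the other X zone gene listed, overlapped between the organs and was not called.

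Adipocyte RNA came with the adrenals. All 8 adipocyte genes were called higher in adrenal, and their summed level was 1936 and 798 scaled CPM in the LS and HS adrenals, against 18.3 to 56.9 in the livers. Ucp1, the uncoupling protein of brown fat, stood at 169 and 36.2 scaled CPM in the adrenals, 0.334 in the LS liver and 0 in the other livers. Adipoq had 140 and 56.0 scaled CPM, and Plin1, which coats the fat droplet, 150 and 65.2. The share of fat in the lipid genes below was not tested. Kidney tubule genes were near 0: none of the 8 passed the filter, and their sum was 0.146 and 2.66 scaled CPM in the adrenals. The 6 skeletal muscle genes summed to 0.999 scaled CPM or less in every library. In whole organs a lower level does not tell fewer cells of a type from less RNA per cell.

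The liver libraries were those of hepatocytes. All 20 plasma protein genes and all 18 metabolic enzyme genes were called higher in liver under TMM, total counts and TPM, with median log2 differences of -13.10 and -11.04. Alb had 108230, 151340, 112830 and 55251 scaled CPM in the 4 livers, against 8.35 and 9.63 in adrenal. Every liver lay at least 5733-fold above both adrenals, and the Stig liver was the lowest. The transport protein gene Ttr ranged from 5263 to 12456 scaled CPM in liver and stood at 1.04 and 1.25 in adrenal, and Apoa1, the main protein of HDL, from 9865 to 23939 against 1.41 and 1.59. Cps1, which opens the urea cycle, had 2220 to 3442 scaled CPM in liver and 0.226 and 0.280 in adrenal (log2 difference -13.43 ± 0.63, edgeR adjusted p = 5.89e-05). Genes of this kind shared with other tissues were less far apart. Trf, which encodes transferrin, stood at 275 and 145 scaled CPM in the adrenals and 19501 to 33723 in the livers. Pck1, an enzyme of glucose synthesis also active in fat, had 367 and 109 scaled CPM in the adrenals against 2129 to 3628, and Cyp2e1 340 and 138 against 1376 to 11682.

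Of 14 hepatocyte transcription factors, 13 were called higher in liver and none in adrenal, and 11 kept all livers above both adrenals under the 3 scalings. Hnf4a stood at 846, 647, 697 and 399 scaled CPM in the 4 livers and at 0.0531 and 0.224 in adrenal. Foxa2 had 27.6 to 37.7 scaled CPM in liver and 2 counts over both adrenals, a ratio of 2636 with an exact 95% counting interval of 729 to 21773. Prox1 overlapped, at 34.6 to 97.9 scaled CPM in liver and 36.5 and 25.9 in adrenal. Cebpb, called in liver at 98.6 to 143 scaled CPM against 60.1 and 58.1, lay above all livers in the adrenals by TPM (124 and 118 against 62.0 to 113).

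Promoter sequence is shown because the genes that separate the organs most widely differed in the letters found near their start sites. RefSeq promoters (GRCm38.p6, 250 bases before to 50 after a start) were matched by symbol for 407 of the 550 liver genes with a gap of 5 or more (506 promoters) and 231 of the 342 adrenal genes (309 promoters). The HNF1 site searched was GTTAATNAT on either strand. It was found in 6.32% of the liver promoters (32 of 506), 0.647% of the adrenal promoters (2 of 309, both of Elavl4 and overlapping each other), 0.320% of the promoters of the other genes tested and 0.801% of all promoters in the table. The albumin promoter holds one. Its last 120 bases before the start (chr5:90460750-90460869, plus strand, 5′ to 3′) are given here with the HNF1 match, which begins 32 bases before the start, and the CCAAT box on both strands in capitals. The same stretch follows for the pair of RefSeq Cyp11a1 starts (chr9:57997904-57998023 and chr9:58014832-58014951, plus strand). GENCODE M21 begins this gene at 58006411, between these stretches, and the bases before that start were not searched. In the stretches shown, CCAAT at the first start was the only match to the 6 motifs searched:
Alb: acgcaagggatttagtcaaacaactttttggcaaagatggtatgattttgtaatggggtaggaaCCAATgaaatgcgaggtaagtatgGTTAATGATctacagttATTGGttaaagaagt
Cyp11a1, first start: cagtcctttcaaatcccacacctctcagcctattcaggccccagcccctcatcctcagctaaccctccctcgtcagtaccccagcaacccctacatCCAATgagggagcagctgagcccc
Cyp11a1, second start: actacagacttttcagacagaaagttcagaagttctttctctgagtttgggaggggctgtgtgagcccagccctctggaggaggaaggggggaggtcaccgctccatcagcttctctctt

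The liver promoters with the HNF1 site belonged to 32 genes and held 33 matches. Of these, 22 began 1 to 100 bases before the RefSeq start, 10 lay farther away, up to 250 bases, and 1 lay after it. On the strand of the gene were 15. Among the other genes tested 18 of 43 matches fell in the nearer range. The 9 matches after Alb by mean scaled CPM in liver (not per length) are printed below with 16 bases on each side, the match in capitals, on the strand of the gene. This choice was made after the values were seen. They are the vitamin D carrier Gc (chr5:89457926-89457966, minus), the fibrinogen chain Fga (chr3:83026091-83026131, plus), Pzp (chr6:128526898-128526938, minus), the complement genes C4bp (chr1:130661658-130661698, minus), Hc (chr2:35061465-35061505, minus) and Cfhr2 (chr1:139858785-139858825, minus), the bile acid and drug carrier Slco1b2 (chr6:141629436-141629476, plus), the bilirubin-conjugating Ugt1a1 (chr1:88211899-88211939, plus) and Igfbp1 (chr11:7197712-7197752, plus):
Gc: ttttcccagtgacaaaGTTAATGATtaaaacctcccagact
Fga: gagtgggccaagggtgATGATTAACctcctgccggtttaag
Pzp: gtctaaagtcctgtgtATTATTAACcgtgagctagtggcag
C4bp: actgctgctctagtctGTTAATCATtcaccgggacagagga
Hc: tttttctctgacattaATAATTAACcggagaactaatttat
Slco1b2: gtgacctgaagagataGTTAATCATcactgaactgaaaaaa
Cfhr2: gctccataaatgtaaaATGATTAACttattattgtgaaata
Ugt1a1: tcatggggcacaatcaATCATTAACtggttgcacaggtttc
Igfbp1: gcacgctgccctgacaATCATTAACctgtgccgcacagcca

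Mean liver levels of these genes ran from 457 scaled CPM for Igfbp1 to 7260 for Gc, and each stood at 3.68 or less in adrenal. The match began 52 bases before the RefSeq start in Gc, 46 in Fga, 44 in Ugt1a1, 64 in C4bp, 66 in Slco1b2 and 77 in Hc, and farther away in Cfhr2 (110) and Pzp (202). GENCODE M21 did not always place a start alike, so these distances hold for RefSeq only. It begins Fga at 83026076, before the stretch printed above (from 83026091), so the match lies inside that gene. It begins Alb at 90460897, after the stretch printed above (to 90460869). Related promoters can share letters by descent, as with the Cfhr and Ugt1a copies. Other motifs differed too. TATAAA was found in 21.3% of the liver, 9.06% of the adrenal and 7.30% of the other promoters, the HNF4A site CAAAGGTCA in 1.98%, 0% and 0.366%, and the cyclic AMP element TGACGTCA in 0.395%, 3.88% and 2.92%. The NR5A site CAAGGTCA, a sequence bound by SF-1, was in 1.29% of the adrenal promoters (4 of 309), 1.78% of the liver and 1.08% of the others. Other forms of this site were not searched, so these shares do not count all sites of SF-1. CCAAT, the commonest, was in 42.3%, 30.7% and 37.3%. Base composition moved with the sets: the liver promoters were 50.4% G or C, the adrenal 58.5% and the others 60.4%. Its part in these shares was not tested.

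**Figure D2:**
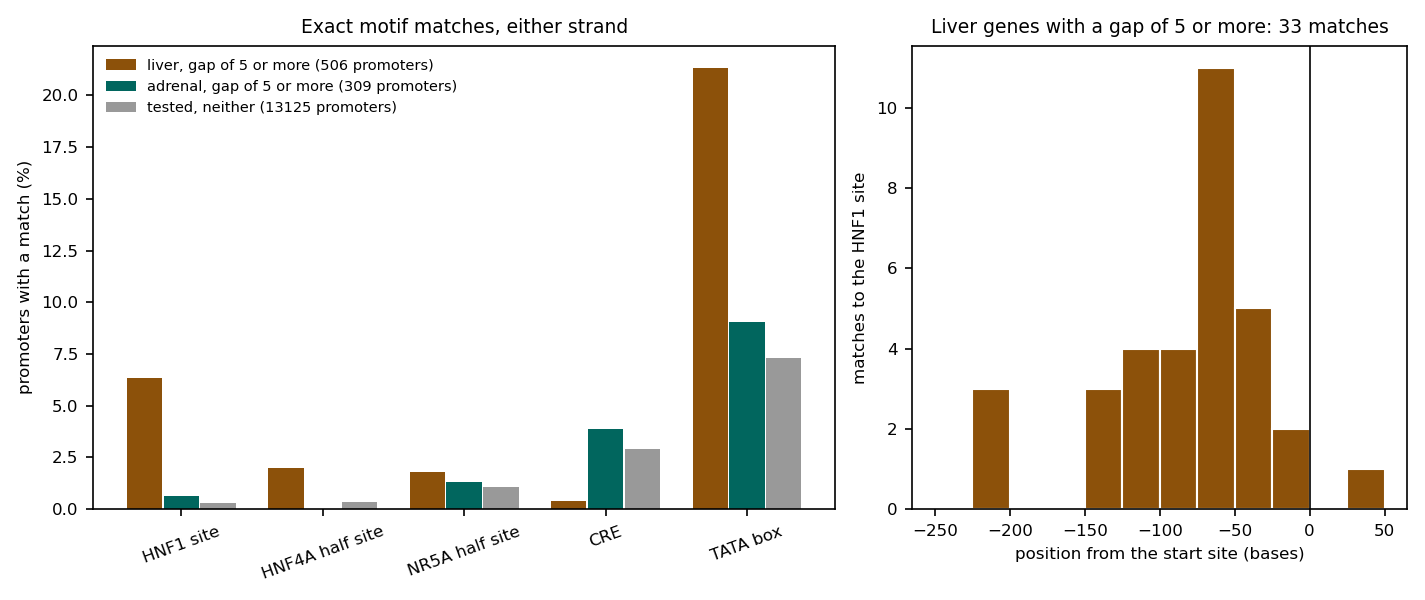
Left, share of promoters with an exact match to 5 of the motifs on either strand, for liver and adrenal genes with a gap of 5 or more and for the other genes tested. Right, position of the 33 HNF1 matches in liver promoters relative to the RefSeq start site, in bins of 25 bases. The HNF1 bar is 6.32% for liver against 0.647% and 0.320%, and 22 of the 33 matches lie within 100 bases before the start.

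Single nuclear receptors were far apart in both directions. Of 49 genes, 42 were tested, 13 were called higher in adrenal and 16 in liver, with a median log2 difference of -0.40. Over all genes tested 26.3% were called higher in adrenal and 24.4% in liver. By total counts 22 and 8 receptors were called, against 8359 and 1369 of all genes. By limma on log2(TPM + 0.1) 26 and 9 were called, against 10172 and 1208. Under all 3 scalings 14 of the 42 receptors tested lay above all livers and 9 lay above both adrenals. Over all genes tested 37.1% and 9.30% did. By TPM the highest in liver was Hnf4a, with 122 ± 11.4 (SD, n = 4), followed by Nr1h3 (LXRα, 87.6 ± 8.30) and Rxra (75.6 ± 20.5). In adrenal the order began with Nr4a1 (NUR77, an immediate early gene induced by ACTH), with 710 TPM ± 113 (SD, n = 2), Nr5a1 (495 ± 39.0) and Nr1h2 (LXRβ, 115 ± 13.3). In liver Nr1h3 and Rxra overlapped in range, at 78.1 to 98.2 and 56.7 to 99.9 TPM. The top pair in adrenal did not, at 630 and 790 TPM against 468 and 523.

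Nr5a1 had 477 and 538 scaled CPM in the adrenals, 2.71 in the LS liver and 0.0605 to 0.154 in the others, and Nr0b1 (DAX-1), its repressor, had 9.002 and 7.87 scaled CPM against 0.167 in the LS liver and 0 in the others. Nr4a1 and its relatives Nr4a2 and Nr4a3 were all called higher in adrenal, Nr4a1 at 670 and 540 scaled CPM against 8.39 to 17.0. Ppard, a regulator of fatty acid use, stood at 45.3 and 64.7 scaled CPM in adrenal and 8.14 to 14.1 in liver. On the liver side Nr1i2 (PXR), a sensor of drugs and bile acids, had 75.3 to 128 scaled CPM and 1 count over both adrenals. Nr1i3 (CAR) varied among the livers, with 41.2, 85.4, 152 and 12.0 scaled CPM in the 4 livers, against 0.0797 and 0.280 in adrenal. Nr1h4 (FXR), the bile acid receptor, was present in both organs, at 62.0 to 122 scaled CPM in liver and 14.4 and 6.71 in adrenal (log2 difference -3.18 ± 0.45, edgeR adjusted p = 0.0018). Ppara, which drives fatty acid oxidation, had 89.7 scaled CPM in the Ergo liver, 22.4 to 24.6 in the other livers and 6.55 and 4.35 in adrenal. The glucocorticoid receptor gene Nr3c1 was called higher in liver (-0.81 ± 0.21, edgeR adjusted p = 0.0185), but its direction depended on the scaling: 43.2 to 55.0 scaled CPM against 33.9 and 22.9, and 5.55 to 8.68 TPM against 17.9 and 12.1. Without the HS adrenal neither Nr3c1 (edgeR adjusted p = 0.142) nor Ppara (0.116) was called, nor Ppara without the LS adrenal (0.0776) or by total counts (0.0802).

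**Figure D3:**
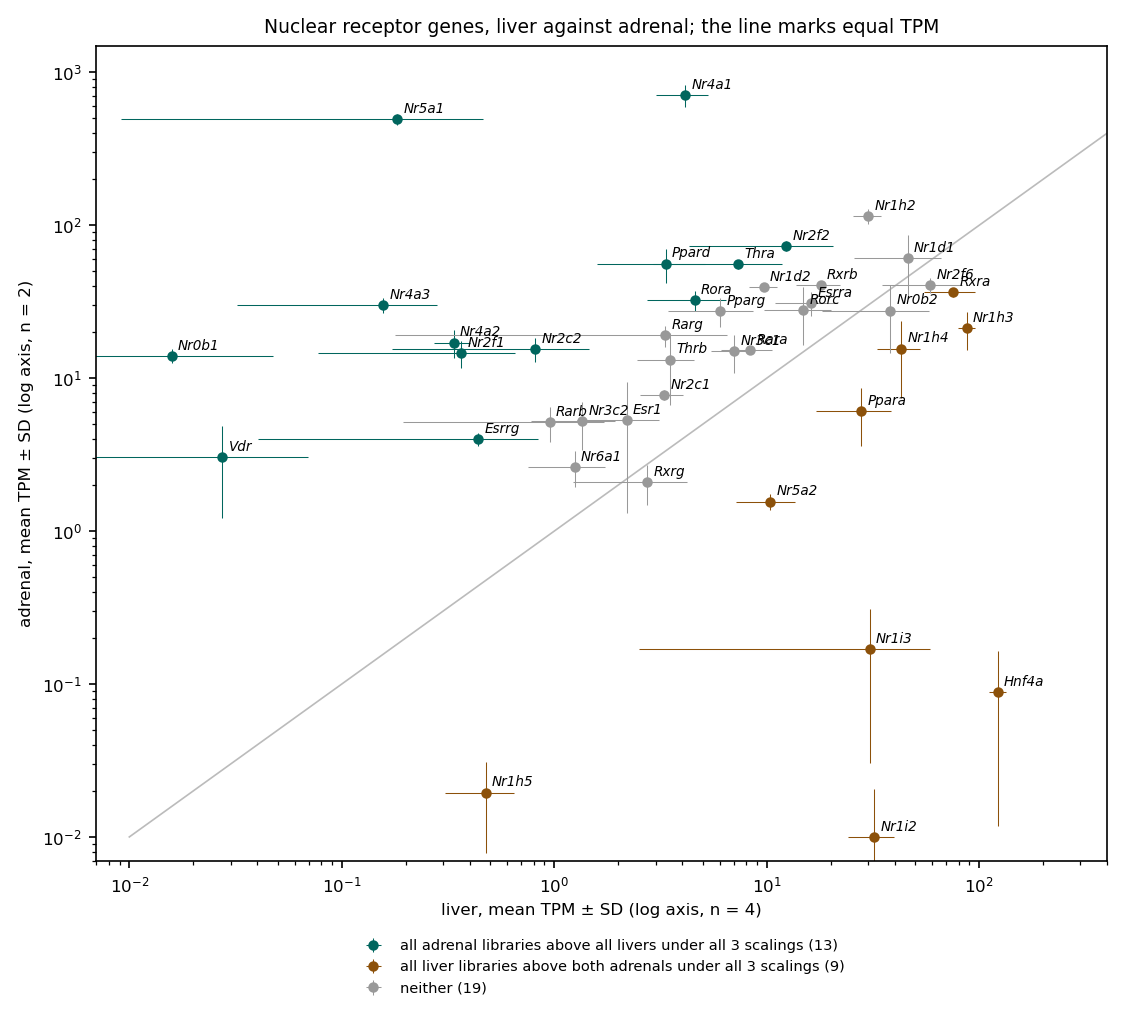
Mean TPM of the nuclear receptor genes tested (1 not shown) in adrenal (n = 2) against liver (n = 4), on log axes, with SD bars whose lower arm is cut at 5% of the mean where the SD exceeds it; colours mark genes that separate the organs under all 3 scalings, and values under 0.01 are drawn at 0.01. Nr5a1 and Nr0b1 lie farthest above the line of equal TPM, and Hnf4a, Nr1i2 and Nr1i3 farthest below it.

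For cholesterol entry the organs differed in the receptor for HDL. Scarb1 (SR-BI), which takes up cholesterol esters from HDL, had 2404 and 3191 scaled CPM in the adrenals and 257, 204, 306 and 204 in the 4 livers. The lowest adrenal was 7.85-fold above the highest liver, with a log2 difference of 3.53 ± 0.31 (edgeR adjusted p = 0.000301). Over the 13 genes tested for uptake and SREBP control, 4 were called higher in adrenal (Scarb1, Vldlr and Lrp8 among them) and 5 in liver, of which 3 (Lrp1 and Insig2 among them) held under the 3 scalings. Over all genes tested 26.3% and 24.4% were called. By total counts the split was 6 to 2 and by TPM 8 to 3, where all genes split 8359 to 1369 and 10172 to 1208. Vldlr, a receptor for VLDL remnants, had 31.0 and 20.4 scaled CPM in adrenal and 0.666 to 7.28 in liver. Srebf1 was called in liver under TMM (299 to 559 scaled CPM against 118 and 140) but by TPM the ranges overlapped, at 74.7 to 138 against 107 and 123, and the call was lost without either adrenal (edgeR adjusted p = 0.0758 without LS and 0.0556 without HS). Srebf2, the regulator of cholesterol synthesis, was not called under TMM, at 38.1 to 53.6 scaled CPM in liver and 52.3 and 44.4 in adrenal. It was called higher in adrenal by edgeR on total counts (log2 difference 1.41, adjusted p = 0.00552) and by limma on log2(TPM + 0.1) (1.84, adjusted p = 0.00355). Both differences were near those of the median gene tested, 1.35 and 1.79.

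Cholesterol esters were handled by different genes in each organ. Soat1, the esterifying enzyme of most tissues, had 245 and 178 scaled CPM in the adrenals and 5.81 to 15.4 in the livers (log2 difference 4.37 ± 0.42, edgeR adjusted p = 0.000448). Soat2, the enzyme of lipoprotein-secreting cells, had 34.8 to 52.6 scaled CPM in liver and 0.199 and 0.548 in adrenal. Lipe, the hormone-sensitive lipase that releases cholesterol for steroid synthesis, stood at 210 and 156 scaled CPM in adrenal and 14.1 to 23.1 in liver, and the ester hydrolase gene Nceh1 at 168 and 109 against 23.8 to 50.3. Lipe is also abundant in fat. It was lower in the HS adrenal, as were the adipocyte genes above, Soat1 and Nceh1, and the part of fat in its level was not tested. Lipid droplet coats split by organ. Plin2 and Plin5 were called higher in liver and Plin1 in adrenal, and Cideb, which feeds droplets into lipoproteins, had 277 to 526 scaled CPM in liver and 0.0664 and 0.0783 in adrenal. In all, 6 of the 15 genes tested for esters and droplets were called higher in adrenal and 7 in liver, with 4 of the 7 holding under the 3 scalings. The shares over all genes tested were 26.3% and 24.4%. By total counts and by TPM the split was 8 to 4, where all genes split 8359 to 1369 and 10172 to 1208.

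Among the carriers of cholesterol inside the cell, the Aster proteins divided by organ. Gramd1b (Aster-B), which moves plasma membrane cholesterol to the endoplasmic reticulum, had 561 and 600 scaled CPM in the adrenals and 4.14, 10.02, 5.27 and 18.3 in the 4 livers. Gramd1c (Aster-C) showed the opposite, with 20.8 to 31.0 scaled CPM in liver and 1.12 and 0.839 in adrenal. Their log2 differences were 5.94 ± 0.62 and -4.63 ± 0.31 (edgeR adjusted p = 0.000611 and 0.000125). Gramd1a was not called (0.83 ± 0.29, edgeR adjusted p = 0.0515). Scp2, a peroxisomal carrier, had 3328 to 5432 scaled CPM in liver and 174 and 116 in adrenal. The lysosomal exporters differed less: Npc1 had 89.0 to 167 scaled CPM in liver and 39.3 and 42.7 in adrenal, yet by TPM its ranges overlapped (19.7 to 24.7 against 21.0 and 22.8), and Npc2 was not called. Of the 14 genes of this list, 2 were called higher in adrenal (Gramd1b and Cav1) and 6 in liver. Over all genes tested the shares were 26.3% and 24.4%. By total counts 7 and 4 of the list were called, against 8359 and 1369 of all genes. By TPM 9 and 3 were, against 10172 and 1208.

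Cholesterol synthesis had more calls in liver by scaled CPM, as many in each organ by total counts and more in adrenal by TPM. Of 20 genes, 9 were called higher in liver and 1 in adrenal, with a median log2 difference of -1.68. Over all genes tested 24.4% and 26.3% were called. Under total counts 3 were called in each direction, and by limma on log2(TPM + 0.1) 3 in liver and 7 in adrenal. These scalings moved all genes toward adrenal, with 1369 liver and 8359 adrenal calls, and 1208 and 10172. Tm7sf2, Ebp and Sc5d, enzymes after lanosterol, kept all livers above both adrenals under the 3 scalings, Ebp at 183 to 403 scaled CPM against 16.5 and 14.1. The adrenal exception was Dhcr7, which reduces 7-dehydrocholesterol to cholesterol. It had 444 and 450 scaled CPM in the adrenals and 97.6, 80.7, 80.2 and 40.9 in the livers, a log2 difference of 2.58 ± 0.34 (edgeR adjusted p = 0.00138). Without the Stig liver, the lowest liver for 8 of the 10 liver-side genes, 15 of the 20 were called higher in liver, the count also found with the LS and HS libraries only.

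**Figure D4:**
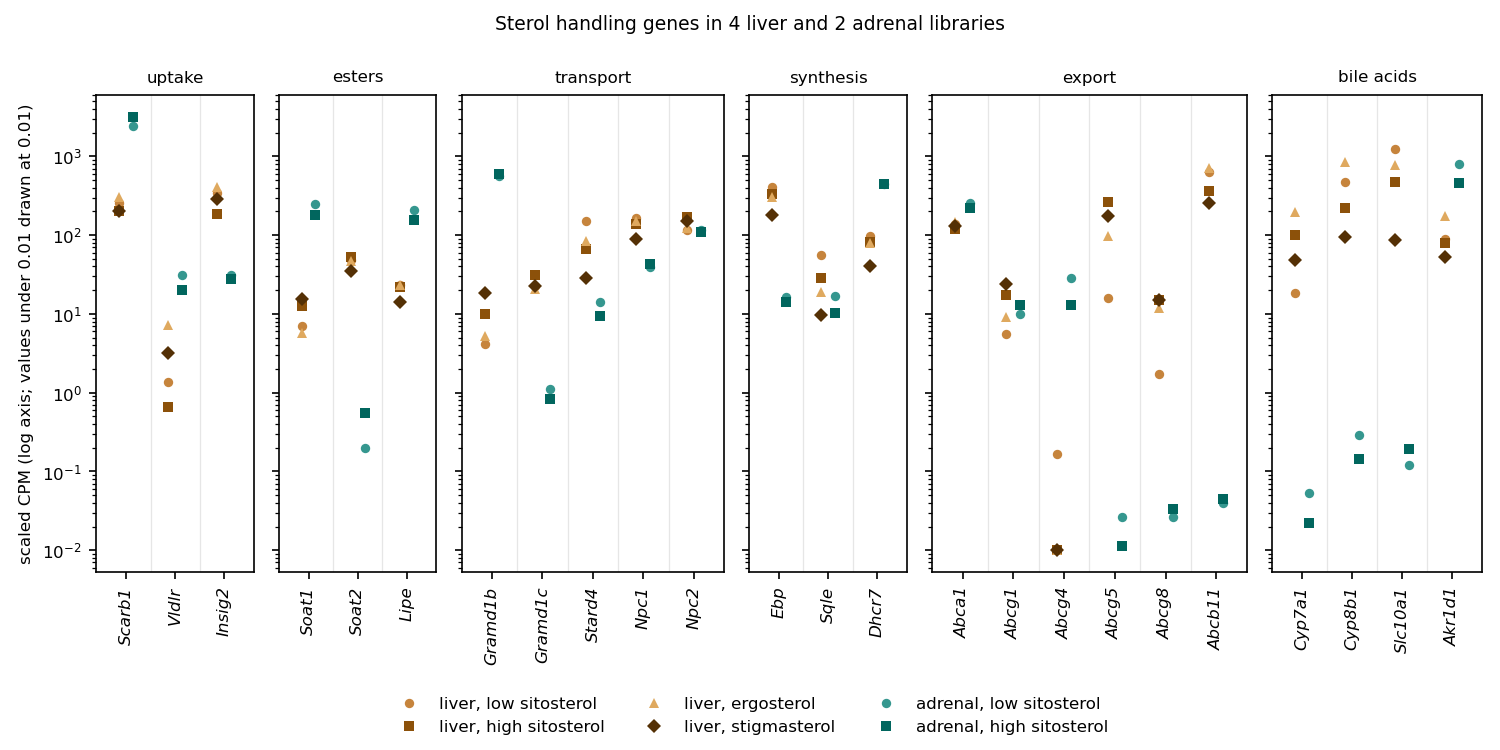
Scaled CPM (log axis) of sterol handling genes by role, 1 point per library, livers in brown and adrenals in green, values under 0.01 drawn at 0.01. Scarb1, Soat1, Lipe, Gramd1b, Dhcr7, Abcg4 and Akr1d1 lie higher in both adrenals (Scarb1 at 2404 and 3191 against 204 to 306), while Abcg5, Abcg8, Abcb11 and Cyp7a1 are near 0 there.

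Most sterol, phospholipid and bile exporters were on the liver side. Abcg5 had 16.03, 264, 97.6 and 173 scaled CPM in the 4 livers and 3 counts over both adrenals, a ratio of 7936 with an exact 95% counting interval of 2715 to 38485. Transcripts assigned to the targeted gene itself, Abcg8, stood at 1.70, 14.8, 11.9 and 15.2 scaled CPM in liver and 0.0266 and 0.0336 in adrenal. Both were lowest in the LS liver. Abcg5 and Abcg8 overlap on chromosome 17 (84658234 to 84683011, minus strand, and 84676302 to 84700333, plus strand, GENCODE M21 on GRCm38), the library kit does not mark strand and the sources used here do not say which exons were deleted, so the total of Abcg8 does not check the knockout. Abcg4, known from neurons, was called higher in adrenal, with 28.8 and 13.1 scaled CPM, 0.167 in the LS liver and 0 in the other livers. Abca1, which loads cholesterol onto apolipoprotein A-I, was present in both organs and called higher in adrenal, at 259 and 219 scaled CPM against 121 to 148 (0.83 ± 0.19, edgeR adjusted p = 0.0104), a call lost without the LS adrenal (0.71, adjusted p = 0.0944). Abcg1, the exporter to HDL, overlapped, with 10.01 and 12.8 scaled CPM in adrenal and 5.51, 17.2, 9.03 and 24.1 in the livers. The canalicular pumps Abcb11 (bile salts), Abcc2 and Abcb4 (phospholipid) had 257 to 711, 247 to 436 and 216 to 338 scaled CPM in liver and 0.940 or less in adrenal. Of the 12 exporters tested, 8 were called higher in liver and 2 in adrenal, against 24.4% and 26.3% of all genes tested.

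Bile acid synthesis was a liver program with 1 exception. Of 15 genes, 14 were called higher in liver, 12 of them separating the organs under the 3 scalings. Cyp7a1, the rate-limiting enzyme, had 18.3, 99.1, 194 and 48.9 scaled CPM in the 4 livers and 0.0531 and 0.0224 in adrenal. Cyp8b1, which makes cholic acid, had 469, 223, 840 and 96.0 scaled CPM in the same livers and 0.292 and 0.145 in the adrenals. The exception was Akr1d1, the steroid 5β-reductase, which also acts on steroid hormones: 811 and 461 scaled CPM in adrenal against 88.9, 79.7, 176 and 52.2 in liver (2.68 ± 0.49, edgeR adjusted p = 0.00492). All 12 hepatic uptake transporters were called higher in liver, with a median log2 difference of -11.53. Slc10a1 (NTCP), the bile salt carrier, had 1230, 476, 774 and 87.0 scaled CPM in liver and 0.119 and 0.190 in adrenal. Slco1a1 had 8.05 scaled CPM in the Stig liver and 313 to 691 in the other livers, all above 0.0531 and 0.0895 in adrenal. The Stig liver was the lowest for 10 of these 12.

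Lipoprotein genes were on the liver side, 18 of 20 called there and none in adrenal. Apob, the scaffold of VLDL, had 2437 to 4440 scaled CPM in liver and 0.292 and 0.268 in adrenal, and Apoe, made by many cells, 23536 to 42583 against 453 and 893. Lpl, the lipase of muscle and fat, was not called, at 34.7 to 578 scaled CPM in liver and 452 and 149 in adrenal. Of 11 tested genes of steroid clearance, 9 were called higher in liver. Hsd17b6, which inactivates androgens, had 42.6 to 128 scaled CPM in liver and no count in adrenal, at least 2340-fold higher against a floor of 3 counts over both adrenals. Hsd11b1, which regenerates active glucocorticoid, had 679, 509, 618 and 159 scaled CPM in liver and 33.1 and 50.3 in adrenal (edgeR adjusted p = 0.00571, and 0.0529 without the LS adrenal). The steroid reductases divided: Srd5a1 was called in liver (64.7 to 242 scaled CPM against 25.9 and 25.8) and Srd5a2 in adrenal (54.9 and 33.6 against 0.735 to 1.09, log2 difference 5.69 ± 0.29, edgeR adjusted p = 6.51e-05).

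Shares of summed TPM within pairs of related genes were compared between the organs. Of the summed TPM of Nr5a1 and Nr5a2 (LRH-1), Nr5a1 held 99.6% and 99.7% in the adrenals, and 7.18%, 0.204%, 0.315% and 0.570% in the 4 livers. Soat1 held 99.9% and 99.7% of the Soat pair in adrenal and 6.29% to 18.3% in liver. These shares do not depend on how libraries are scaled. For the LXR genes Nr1h2 held 80.6% and 88.0% in adrenal and 23.3% to 29.8% in liver. The scaled level of Nr1h2 itself overlapped (55.7 and 65.8 CPM against 47.0 to 58.5), but its TPM did not (106 and 125 against 26.2 to 36.3). Nr1h2 was called higher in adrenal by edgeR on total counts (log2 difference 1.52, adjusted p = 0.00179) and by limma on log2(TPM + 0.1) (1.95, adjusted p = 0.000287). The median gene tested stood at 1.35 and 1.79 under these scalings, so the calls do not set Nr1h2 apart from most genes. Nr1h3 had 14.99 and 9.22 scaled CPM in adrenal and 111 to 198 in liver. Hsd3b1 held nearly all of the pair with Hsd3b5 in adrenal (at least 99.99%), 0.334% to 6.06% in 3 livers and 57.1% in the Stig liver, where Hsd3b5 stood at 1.17 scaled CPM against 81.9 to 504 in the others. The Insig pair was the one that overlapped, Insig1 holding 16.1% to 65.0% in liver and 56.9% and 45.5% in adrenal. For 10 of the 11 pairs the shares of the organs did not overlap. Among single genes 9955 of the 14488 tested separated the organs, and the share over other pairs was not computed. For Stard4 with Stard5 the ranges nearly met (12.2% to 34.6% against 35.9% and 37.1%), as they did for Cyp11b1 with Cyp11b2 (93.02% to 100% against 93.01% and 92.1%). The HS, Ergo and Stig livers had only 20, 15 and 45 counts of Cyp11b1 and none of Cyp11b2.

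**Figure D5:**
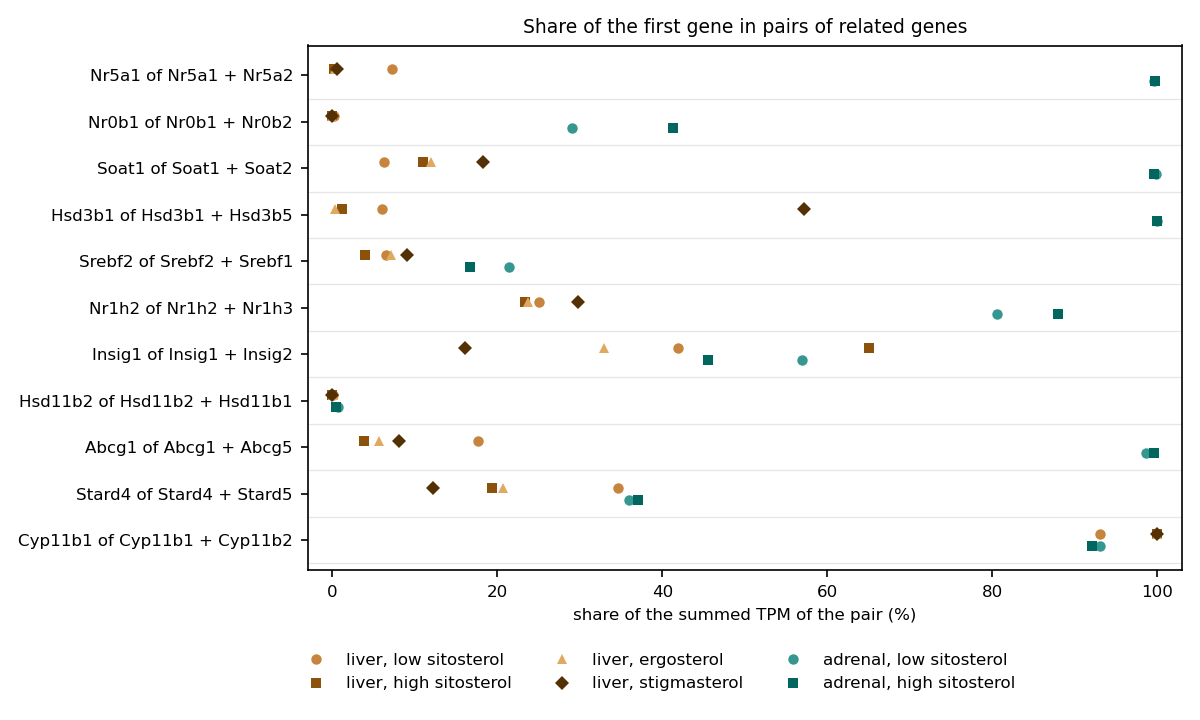
Share of the first gene in the summed TPM of 11 pairs of related genes, 1 point per library, livers in brown and adrenals in green. Nr5a1, Soat1, Hsd3b1 and Abcg1 hold over 90% of their pairs in both adrenals and a small share in the livers, except Hsd3b1 in the Stig liver (57.1%).

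Among genes with at least 10 TPM in the organ where they were high, the widest gaps on the adrenal side belonged to Ctxn3, C1ql1 and Kcnk9, none of which had a count in any liver. Ctxn3, a small membrane protein, had 20.8 and 17.2 scaled CPM in the adrenals, at least 849-fold higher than the liver floor of 3 counts. Kcnk9 (TASK-3), a potassium channel of aldosterone-producing cells, had 15.4 and 11.4 scaled CPM, at least 564-fold higher. Next came Pcsk1n, Mc2r, Dbh, Tmem179, Hoxb9, Ptprn2, Klhl14, Tacr2, Npy, Cyp11b2, Cyp11b1 and Pnmt, with gaps of 8.58 down to 8.04. On the liver side the widest were Cyp3a11, Mbl1 and Amdhd1. Cyp3a11, the main drug-metabolizing P450, had 828, 783, 1544 and 3519 scaled CPM in the livers and 4 counts over both adrenals. Mbl1, a lectin of innate immunity, had 114 to 283 scaled CPM and no count in adrenal, at least 6271-fold higher. Cyp3a25, Apob, Pzp, Cps1, F2, F9, Apoa4, Mat1a, Ambp, Hpx, Hsd17b6 and Otc followed with gaps of 13.26 down to 12.64. Reads of close copies such as the Cyp3a genes may be shared between them. In all, 109 genes had no count in any liver and at least 1 CPM in both adrenals (176 when the LS liver was left out), and 33 had no count in either adrenal and at least 1 CPM in every liver.

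Genes of other cell types were measured in both organs. Of 10 endothelial genes 5 were called higher in adrenal, 3 in liver and 2 in neither, against 26.3% in adrenal and 24.4% in liver over all genes. The liver count was near that share. The endothelial genes Pecam1, Cdh5, Kdr, Tek and Emcn were called higher in adrenal, Emcn at 57.2 and 58.6 scaled CPM against 2.62 to 5.22. Stab2 and Clec4g, markers of the liver sinusoid, were 2 of the 3 genes of this list with all livers above both adrenals. Stab2 had 25.8 to 54.7 scaled CPM in liver and 0.319 and 1.12 in adrenal, and Clec4g 23.4 to 69.4 with 1 count over both adrenals. Of 12 macrophage genes, Clec4f, Vsig4 and Cd5l, markers of Kupffer cells, were called higher in liver, a share near the 24.4% of all genes, and none in adrenal. Timd4 and Marco, also markers of Kupffer cells, were not called. General macrophage genes overlapped, Csf1r at 47.5 to 112 scaled CPM in liver and 33.6 and 62.9 in adrenal. Of 5 bile duct genes tested 2 were called higher in liver (24.4% over all genes). The Stig liver held most of their RNA, with Spp1 at 1083 scaled CPM against 43.0 to 77.6 in the other livers and 12.6 and 23.1 in adrenal, without a call. Erythroid genes went both ways. Of 5 tested, 3 were called higher in adrenal and 1 in liver, against 26.3% and 24.4% of all genes. Hbb-bs, a haemoglobin gene that reports blood left in the tissue, stood at 417 and 640 scaled CPM in adrenal and 185 to 270 in liver.

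At the edge of the rule, the listed genes just inside it were Nsdhl (17.6 scaled CPM in the lowest liver, 17.6 in the highest adrenal, a gap of 0.00431), Npc2 (118 against 116) and Syt1 (12.5 in the lowest adrenal, 12.2 in the highest liver). Just outside were Osbpl2 (28.9 in the highest liver, 28.2 in the lowest adrenal), Rarg (16.6 against 16.1) and Idi1 (34.4 in the highest adrenal, 32.9 in the lowest liver). None of the 6 was called by edgeR, with adjusted p-values from 0.0663 for Nsdhl to 0.497 for Osbpl2.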

How the data were processed

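For the same 6 libraries the authors deposited estimated counts per gene and, in a second table, TPM. Per the labels' protocols, total RNA was purified with Qiagen RNeasy columns and sequenced from TruSeq RNA v2 libraries. Tools named in the submitters' processing notes are kallisto 0.43.1, HISAT2 2.0.5 and Trimmomatic 0.33, with build mm10. No source used here names the annotation. Among the counts, 1 line that names no gene held 0% of the counts and was left out.

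Estimated counts were rounded, filtered at 1 CPM in at least 2 libraries and tested with edgeR 4.0.16 (R 4.3.3; TMM, quasi-likelihood, Benjamini-Hochberg adjustment over 14488 genes, threshold 0.05) for organ alone, 4 livers against 2 adrenals. The steps were tested on simulated data. The gap used a prior count of 0.5. Intervals and floors cover counting error only. Coordinates came from GENCODE M21 (32158 of 33639 symbols matched). Alternatives were total-count scaling, no filter, DESeq2 1.42.0, limma 3.58.1 on TPM, the LS and HS libraries alone and each library left out.

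Named genes were 47 key genes, 11 pairs, the 15 widest gaps in each direction, the widest gaps within each list (at most 6) and the 6 genes at the edge of the rule. Members and lists were chosen with earlier results of these data known. Genes outside this rule were named after their values were seen, as were the counts under all 3 scalings combined. Some listed genes count toward the list totals but are not reported by name here.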

Additional observations from a re-analysis of the deposited data

Results flagged for a closer look

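Among the 4 livers, 20 values stood farther from the nearest other liver than Dixon's 95% limit allows for 4 samples, among 72 genes examined. Chance flags about 1 in 20 groups. In 16 of the 20 the LS liver was high for an adrenal gene. It had 34.9 scaled CPM of Star, 23.4 of Cyp11a1, 36.8 of Hsd3b1, 28.4 of Cyp21a1, 19.6 of Cyp11b1 and 0.701 of Cyp11b2. Nr5a1 stood there at 2.71 scaled CPM, Nr0b1 at 0.167 and Mc2r at 0.468. Of the chromaffin genes it had 1.30 scaled CPM of Th, 0.534 of Dbh, 0.935 of Pnmt and 3.74 of Chga. Hoxb9 (0.367), Klhl14 (0.0668) and Tacr2 (0.0668 scaled CPM) completed these. For Nr0b1, Cyp11b2, Klhl14, Tacr2 and Tmem179 the other 3 livers had no count, so any count meets the limit, and Klhl14 and Tacr2 rest on 2 counts and Tmem179 on 1. Adipoq was also highest there among the livers, at 0.935 scaled CPM against 0.0301 to 0.151, while the sum of the 8 adipocyte genes was lowest there (18.3). The source of this RNA was not tested.

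The Stig liver was low for Nr1h3 (111 scaled CPM against 188 to 198) and Lipe (14.1 against 22.0 to 23.1), and had 0.0193 scaled CPM of Tmem179 where the other livers had 0. The Ergo liver was high for Ppara, at 89.7 scaled CPM against 22.4 to 24.6. Abcg1 was the key gene whose difference turned with the diet: adrenal minus liver was 0.858 on the log2 scale in the LS libraries and -0.423 in the HS ones. With 1 library of each kind this difference was not tested.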

How the results depend on the processing

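Scaling changed the counts most. By total counts 8359 genes were called higher in adrenal and 1369 in liver, by limma on log2(TPM + 0.1) 10172 and 1208, and on log2(TPM + 1) 10353 and 1200. Without overlap there were 9988 and 1662 by total counts, 10845 and 1373 by TPM, and 2402 and 1956 at a gap of at least 1. Leaving out each library gave 1927 to 4595 adrenal and 1921 to 4096 liver calls, lowest without an adrenal (1927 and 2069 without LS, 1971 and 1921 without HS), where the lone adrenal is assumed to vary like the livers. Non-overlap counts then ran from 5549 to 6204 and 4680 to 5059. With 2 diets only, the diet block gave 4662 and 4018 calls and no diet block 4774 and 4074. DESeq2 gave 3951 and 4121, with no adjusted p for Star, Cyp11a1, Cyp21a1, Cyp11b1, Hsd3b1 and Chga, all high in 1 liver; the cause was not tested. Of 46 key genes tested, directions turned by total counts for Nr3c1 (0.49), Sqle (0.37), Abcg1 (0.87) and Npc2 (0.93). With limma on log2(TPM + 0.1) and on log2(TPM + 1) they turned for Nr3c1 (1.08 and 0.99), Sqle (0.87 and 0.79), Srebf1 (0.0855 and 0.0845), Abcg1 (1.57 and 1.27), Npc1 (0.0302 and 0.0288) and Npc2 (1.40 and 1.37). Abcg1 also turned without the Stig liver (0.0609, a range of -0.55 to 0.0609 over single libraries left out) and with the diet block (0.19). Without the LS, HS or Ergo liver none of the 46 changed its call or direction, and without either adrenal 5 lost their call. Depth limits only levels near 3 counts. No paired analysis was possible because no label ties a liver to an adrenal of the same mouse.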

Other observations

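Hox genes, the positional code of the body axis, were an adrenal group (chosen after their values were seen). Of 21 tested, 17 were called higher in adrenal by edgeR and none in liver, against 26.3% and 24.4% of all genes tested. A gap of 5 or more was reached by 12. Their summed TPM was 517 and 461 in the adrenals and 2.07 to 6.76 in the livers. Within the Hoxb cluster Hoxb9 was the highest, at 165 and 142 TPM in the LS and HS adrenals and 0.0946 or less in the livers. Hoxb8 (54.1 and 51.8 TPM), Hoxb7 (48.7 and 48.8) and Hoxb6 (49.4 and 46.4) followed, and Hoxb2 to Hoxb5 ranged from 6.68 to 23.3 TPM in the adrenals. The genes without a call were Hoxa2, Hoxa3, Hoxa4 and Hoxa5. Hoxa5 had 6.37 and 4.77 scaled CPM in adrenal and 0.481 to 3.17 in liver (edgeR adjusted p = 0.0981).

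Gene families of the liver lay together on the genome. Within the window of chromosome 19 from 39000001 to 40000000 all 9 tested genes were Cyp2c members with a liver gap of 5 or more. On chromosome 5, from 87000001 to 88000000, Ugt2 and Sult1 genes made up 8 of 9. All 17 tested Ugt genes were called higher in liver, as were 20 of 21 Mup genes, against 24.4% of all genes tested. The summed TPM of the Mup genes ranged from 9210 in the Stig liver to 106830 in the LS liver. Reads of such close copies are divided between them with uncertainty. Of 48 potassium channel genes tested, 25 were called higher in adrenal and none in liver, against 26.3% and 24.4% of all genes tested. Their summed TPM was 1088 and 977 in adrenal and 25.4 to 56.8 in liver. The Ugt, Mup and potassium channel families were also chosen after their values were seen.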
